A study of Mus musculus with 6 samples.

Results

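The genes described here are 35 genes of myelin and mature oligodendrocytes, the cells that wrap axons in the central nervous system, measured in the prefrontal cortex of BTBR and C57BL/6J mice. They were chosen by name, with earlier results of these data known. Every non-control probe on the array whose gene name, old or current, was one of the 35 was taken. This gave 59 of 41174 probes. A probe was tested if at least 3 of the 6 arrays read it well above background, which held for 56 of the 59 and for 30011 probes in all. The other 3, one each for Gpr37, Ugt8a and Myrf, did not pass background on a single array, and each of the 35 genes kept at least 1 probe.

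RNA of whole prefrontal cortex was hybridised to Agilent 1-colour arrays, 1 array per mouse. The BTBR group held 3 mice labelled BTBR T+ Itpr3tf/J, an inbred strain that is known for low sociability and for the absence of the corpus callosum. The C57BL/6J group held 3 mice labelled wild type. The 6 animals were males aged 5 months that had received no drug. The labels give C57BL/6J as the strain background of the BTBR mice too, which does not match their title and genotype. The design text speaks of 3 mice per group, and nothing more shows how the mice were bred or housed between groups, so strain cannot be told apart from any such difference.

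Myelin is a stack of membrane that an oligodendrocyte wraps around an axon. Proteins such as those of Mbp and Mobp hold its layers together, enzymes such as those of Ugt8a and Fa2h make its characteristic lipids, and adhesion proteins such as that of Mag face the axon. Transcription factors including Olig2, Sox10 and Myrf take precursor cells through differentiation into myelinating cells. In whole tissue, fewer oligodendrocytes and less RNA per oligodendrocyte cannot be told apart.

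Levels are given on the log2 scale as the processed signal relative to the 75th percentile of the array, so that 0 is the level of that percentile, and a difference is BTBR minus C57BL/6J. A level applies to its own probe and is not compared with the level of another gene. Several arrays stood apart in markers of other tissue. The summed level of 10 genes of the striatum, a region next to the dissected cortex, was 18.35, 62.66 and 15.23 times the array's 75th percentile in BTBR mice 1 to 3, against 27.43, 34.48 and 222.5 in C57BL/6J mice 1 to 3. The C57BL/6J mouse 3 thus stood above all others and BTBR mouse 2 above the rest of its strain, and all 10 genes passed background on each of the 6 arrays. The summed level of the 5 tested choroid plexus genes lay between 0.3627 and 1.518 in BTBR, against 0.3755, 1.994 and 8.196 in C57BL/6J, with mouse 1 the highest. Of 6 choroid plexus genes, 3 passed background on all 3 BTBR arrays and 4 on all 3 C57BL/6J arrays. Results are therefore also given without these mice. Neuronal markers, which bear on the tissue label, were high in both strains, with a summed level of 293.8 to 313.1 in BTBR and 258.2 to 303.0 in C57BL/6J over 10 genes.

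RNA of many of the myelin genes was lower in BTBR cortex. In limma's moderated test with Benjamini-Hochberg adjustment over all 30011 probes, 14 of the 56 probes (25.0%) fell in BTBR at an adjusted p under 0.05, against a background of 3.25% of all probes, and 0 rose, against 2.19% of all probes. The 14 probes belong to 11 genes: Mobp, Pllp, Opalin, Mog, Mag, Gpr37, Fa2h, Aspa, Nkx6-2, Cldn11 and Trf. Their differences ran from -0.60 to -1.83, or from 1.52-fold to 3.55-fold lower. No tested probe of the other 24 genes passed. The mean was lower in BTBR for 49 of the 56 probes (87.5%) and higher for 7.

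**Figure D1:**
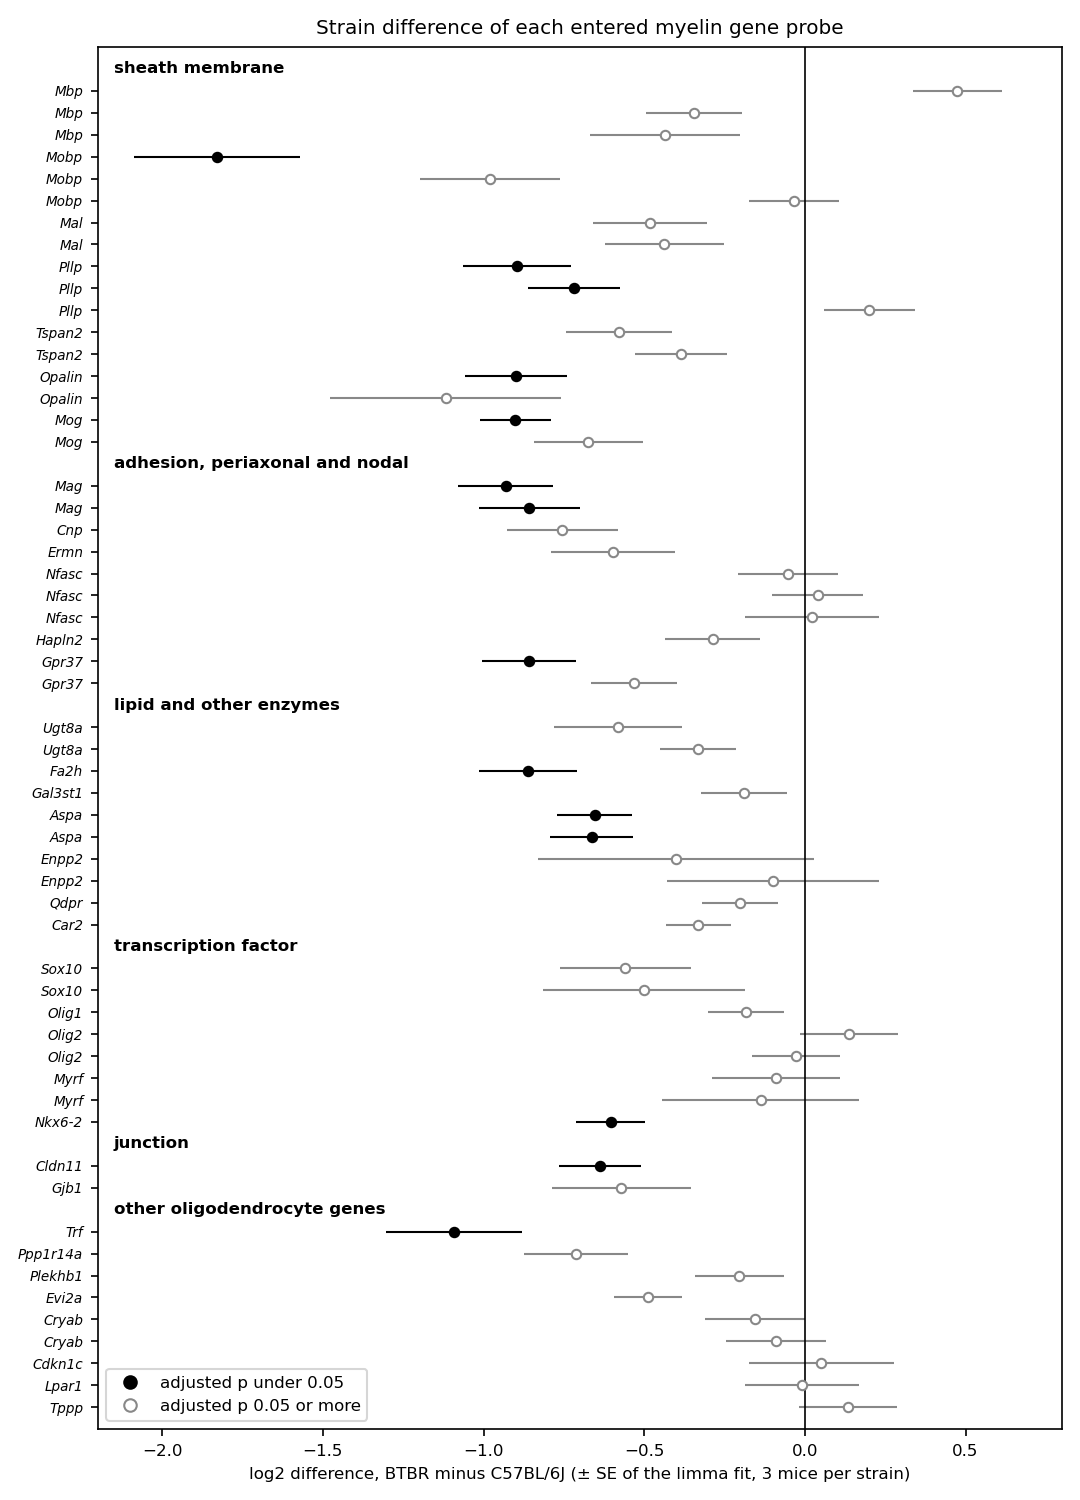
Difference between BTBR and C57BL/6J (log2, horizontal axis) for each tested probe of the 35 genes, grouped by role, with the standard error of the fit as whiskers and the 14 probes past the test marked. Most points lie left of 0, and the probes of Mobp, Mbp and Pllp spread across a wide range within 1 gene.

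With each gene represented by its brightest probe, 33 of 35 genes (94.3%) had a lower mean in BTBR, against 48.4% of 16383 named genes. The members' median difference was -0.48, with a range of -1.09 to 0.13, and the median over all genes was 0.01. Only 8.42% of all genes lay below the members' median. The spread between mice of 1 strain was much the same for members and for all genes, with a median SD of 0.19 and 0.17. In 19 of the 35 genes (54.3%) all 3 BTBR mice lay below all 3 C57BL/6J mice, against 12.5% of all genes. No member gene had its BTBR mice above all C57BL/6J mice, which 11.2% of all genes had. By the brightest probe 8 genes passed the test (22.9%, against 3.27% of all genes) with a lower level in BTBR and 0 with a higher one (against 2.05%), and 20 had an unadjusted limma p under 0.05 with a lower level in BTBR (57.1%, against 9.14%).

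How many probes passed depended on the processing and on single mice. With normexp background correction 0 of the 14 probes passed limma's test, although all 14 were lower in BTBR and 15 of the 35 genes had an unadjusted p under 0.05 with a lower level in BTBR. With no filter on dim probes 3 passed, and with slide as a block 10 did, the losses being Cldn11 (adjusted p 0.0558), both Pllp probes (0.0559 and 0.0638) and Aspa A_51_P259968 (0.0558). Leaving out BTBR mouse 1, 2 or 3 left 2, 3 or 8 member probes past the test, and leaving out C57BL/6J mouse 1, 2 or 3 left 4, 3 or 5. Of all probes, 541 to 840 were called lower in these 6 fits, against 975 with all mice. Without BTBR mouse 2 and C57BL/6J mouse 3 together, the mice with the most striatal RNA in their strains, 2 of the 14 probes passed, those of Mog (limma adjusted p = 0.0398) and Gpr37 (limma adjusted p = 0.0481). The members' median stayed between -0.53 and -0.35 when any 1 mouse was left out and was -0.33 without those 2 mice. Mobp (adjusted p 0.0176 to 0.0413) and Mog (0.0148 to 0.0415), by the probes described below, passed limma's test whichever single mouse was left out. Mobp was lost without those 2 mice together (adjusted p 0.0814). With normexp both were lost, Mobp at an adjusted p of 0.0728 and the dim Mog probe at 0.962, where its difference was -0.58. Of the 6 fits that leave out 1 mouse, the brighter Mag probe passed in 3 and the called Opalin and dimmer Mag probes in 2 each. Aspa A_51_P259975, Cldn11, Fa2h, Gpr37 and Trf passed in 1 each, and Aspa A_51_P259968, Nkx6-2 and both called Pllp probes in 0. The 6 arrays lay on 2 slides, with replicates 1 and 2 of both strains on the first and replicate 3 of both on the second. The members' median difference was -0.55 within slide 1 and -0.37 within slide 2. All 14 probes were lower in BTBR on both slides, but this follows from the strains not overlapping at any of them and is no separate check.

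The mice of a strain also differed among themselves. Over the 35 genes, the median deviation from the mean of the 6 mice was -0.21, -0.30 and -0.14 in BTBR mice 1 to 3, against 0.10, 0.31 and 0.25 in C57BL/6J mice 1 to 3. BTBR mouse 2 had the lowest level of all 6 mice in 23 genes, and BTBR mouse 3 the highest of its strain in 25. C57BL/6J mouse 2 was the highest of all 6 in 24 genes, and C57BL/6J mouse 1 was the lowest of its strain in 26. The summed level of the 35 genes was 261.1, 232.0 and 276.0 times the array's 75th percentile in BTBR mice 1 to 3, against 311.8, 357.7 and 328.6 in C57BL/6J mice 1 to 3, so the strains did not overlap. BTBR mouse 2, the lowest in myelin genes, was also the highest of its strain in striatal genes, whereas C57BL/6J mouse 3, with the most striatal RNA of all, lay between the other mice of its strain; the part of striatal tissue in the myelin values was not tested.

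The probes are 60-base oligonucleotides, and their sequences show which stretch of each transcript was read. Positions are those of the files, in mm9. Mobp is shown first because its 3 probes gave different results, and for all 3 only the first 30 bases are printed. The other probes shown read members past the test, each within the stretch of the transcript that the sequence covers.
Mobp A_52_P267600 (chr9:120084777-120084836, plus strand): atggaaatggggaaaaaggaaacaagagag
Mobp A_51_P291224 (chr9:120077006-120077065, plus strand): acccttcaccttcctcaactccaagcgtga
Mobp A_52_P384465 (chr9:120090501-120090560, plus strand): cgtcactgagtcgcgttgtaatcaccacgt
Opalin A_52_P624415 (chr19:41138452-41141030, minus strand): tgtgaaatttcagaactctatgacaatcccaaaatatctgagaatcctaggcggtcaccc
Mag A_52_P375021 (chr7:31692038-31692097, minus strand): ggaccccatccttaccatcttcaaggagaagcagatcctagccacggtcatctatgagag
Pllp A_51_P201187 (chr8:97201181-97201240, minus strand): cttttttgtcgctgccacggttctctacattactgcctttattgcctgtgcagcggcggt
Aspa A_51_P259975 (chr11:73119051-73119110, minus strand): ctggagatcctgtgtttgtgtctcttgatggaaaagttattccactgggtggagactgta
Aspa A_51_P259968 (chr11:73127073-73133309, minus strand): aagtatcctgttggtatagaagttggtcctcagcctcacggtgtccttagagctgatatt
Trf A_51_P362638 (chr9:103117569-103118184, minus strand): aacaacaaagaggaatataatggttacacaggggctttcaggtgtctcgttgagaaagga
The 60 bases of the Opalin probe lie over 2579 genomic bases, those of the second Aspa probe over 6237 and those of the Trf probe over 616, so these 3 probes cross splice junctions and read spliced RNA.

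All 7 genes of the sheath membrane (Mbp, Mobp, Mal, Pllp, Tspan2, Opalin and Mog) had a lower mean in BTBR by their brightest probe, against 48.4% of all genes. Their median difference was -0.58, and 5 of their 17 probes passed the test, against 3.25% of all probes called lower. Mobp encodes myelin-associated oligodendrocyte basic protein, which lies between the cytoplasmic faces of compact myelin. Its probe A_52_P267600 read -1.11, -1.61 and -1.08 in BTBR mice, against 0.14, 1.02 and 0.53 in C57BL/6J mice. All 3 BTBR mice lay more than 1 log2 unit below the lowest C57BL/6J mouse. The mean was -1.26 ± 0.30 in BTBR and 0.56 ± 0.44 in C57BL/6J (SD, n = 3 each), a difference of -1.83 ± 0.26 (SE), or 3.55-fold lower (limma adjusted p = 0.0109).

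The other Mobp probes gave smaller differences. Probe A_51_P291224 read 1.26, 0.89 and 1.33 in BTBR mice, against 1.72, 2.30 and 2.40 in C57BL/6J mice, a difference of -0.98 ± 0.22 that missed the threshold (limma adjusted p = 0.0576). Its strains did not overlap. Probe A_52_P384465, the brightest of the 3, read 2.82, 2.88 and 3.10 in BTBR mice, against 2.79, 2.97 and 3.15 in C57BL/6J mice, and the strains overlapped throughout (difference -0.03 ± 0.14, limma adjusted p = 0.949). All 3 probes lie on the plus strand of chromosome 9, and the one whose strains overlapped is the farthest downstream. Each was designed on a different transcript record. To compare them, the level of 1 probe was subtracted from that of another within each mouse. Probe A_52_P267600 minus A_52_P384465 was -4.20 ± 0.28 in BTBR and -2.40 ± 0.39 in C57BL/6J (SD, n = 3 each), which differ by -1.80 with no overlap (two-sided exact permutation p = 0.1). Probe A_51_P291224 minus A_52_P384465 differed by -0.95 between strains (exact permutation p = 0.1), and A_52_P267600 minus A_51_P291224 by -0.85 (exact permutation p = 0.1). With 3 mice against 3, a p of 0.1 is the smallest this test can give, so none of the 10 such contrasts computed in 4 genes could pass.

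Mbp, which encodes myelin basic protein, the major protein that joins the cytoplasmic faces of the sheath, also had probes that disagreed. Its brightest probe, A_51_P349205, read 5.37, 5.18 and 5.33 in BTBR mice, against 5.37, 5.83 and 5.72 in C57BL/6J mice, and the difference of -0.35 ± 0.15 missed the threshold (limma adjusted p = 0.319). Probe A_52_P329451 read 3.32, 2.83 and 3.32 in BTBR mice, against 3.16, 3.79 and 3.83 in C57BL/6J mice, with overlapping strains (difference -0.44 ± 0.23, limma adjusted p = 0.435). Probe A_52_P604195, designed on another transcript record than these 2, went the other way. It read 3.26, 3.12 and 3.42 in BTBR mice, against 2.98, 2.64 and 2.75 in C57BL/6J mice, so every BTBR mouse was above every C57BL/6J mouse, yet the difference of 0.47 ± 0.14 missed the threshold (limma adjusted p = 0.134). Within mice, A_52_P604195 minus A_51_P349205 differed by 0.82 between the strains (exact permutation p = 0.1). The same probe minus A_52_P329451 differed by 0.91 (exact permutation p = 0.1), whereas the 2 lower-reading probes differed from each other by 0.09 (exact permutation p = 0.6).

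**Figure D2:**
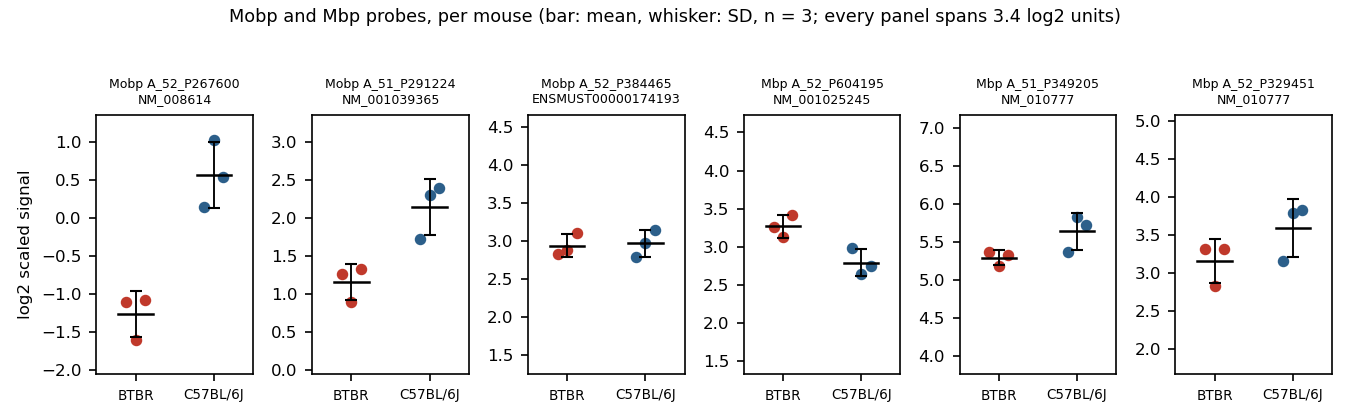
Level of each Mobp and Mbp probe (log2 relative to the array's 75th percentile) in every mouse, BTBR left of C57BL/6J in each panel, with bars at the mean, whiskers of 1 SD and n = 3 mice a strain. Each panel spans 3.4 log2 units. Strains are apart and BTBR lower for A_52_P267600 and A_51_P291224 of Mobp, they overlap for A_52_P384465, and BTBR is higher for A_52_P604195 of Mbp.

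Pllp encodes plasmolipin, a tetraspan protein of the myelin membrane. Its probe A_52_P121502 read 1.02, 0.69 and 1.09 in BTBR mice, against 1.69, 2.09 and 1.70 in C57BL/6J mice, a difference of -0.90 ± 0.17, or 1.86-fold lower (limma adjusted p = 0.0325). A second probe, A_51_P201187, fell by 0.72 on the log2 scale, or 1.65-fold (limma adjusted p = 0.0396), with no overlap. Neither call held when any 1 mouse was left out. The remaining probe with the Pllp name, A_51_P154867, lies on the opposite strand to these 2 and gave a difference of 0.20 with overlapping strains (limma adjusted p = 0.582).

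Opalin encodes a glycoprotein of the oligodendrocyte paranodal loops. Its probe A_52_P624415 read -1.56, -1.50 and -1.51 in BTBR mice, against -0.78, -0.30 and -0.80 in C57BL/6J mice. The BTBR mice were nearly equal and all below the C57BL/6J mice, with a difference of -0.90 ± 0.16, or 1.87-fold lower (limma adjusted p = 0.0255). Its other probe differed by -1.12 ± 0.36 and did not pass (limma adjusted p = 0.175). Mog encodes myelin oligodendrocyte glycoprotein, which sits on the outermost layer of the sheath. Its dimmer probe, A_52_P169614, designed on a cDNA clone, read -4.92, -4.78 and -4.74 in BTBR mice, against -3.83, -3.90 and -4.00 in C57BL/6J mice. The gap between the strains was several times the spread within each, and the difference was -0.90 ± 0.11, or 1.87-fold lower (limma adjusted p = 0.0059). The brighter Mog probe had a difference of -0.67 ± 0.17, with no overlap, and missed the threshold (limma adjusted p = 0.0862). In the authors' deposited matrix the dimmer Mog probe no longer passed (difference -0.20, limma adjusted p = 0.0823). Tspan2, a tetraspanin, and Mal, a proteolipid of myelin, each had 2 probes with lower means in BTBR. The differences were -0.58 and -0.39 for Tspan2 and -0.48 and -0.44 for Mal, and none passed.

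In the adhesion, periaxonal and nodal group all 6 genes had a lower mean in BTBR by their brightest probe, against 48.4% of all genes. The median difference was -0.56, and 3 of 10 tested probes passed, against 3.25% of all probes called lower. Mag encodes myelin-associated glycoprotein, which holds the inner layer of myelin to the axon. Its brighter probe, A_51_P435428, read 4.12, 3.78 and 4.22 in BTBR mice, against 4.89, 5.09 and 4.94 in C57BL/6J mice. Every BTBR mouse was below every C57BL/6J mouse, with a difference of -0.93 ± 0.15, or 1.91-fold lower (limma adjusted p = 0.0171). The second Mag probe, A_52_P375021, differed by -0.86 ± 0.16, or 1.81-fold (limma adjusted p = 0.0296). Mag thus fell by nearly the same amount at both of its probes, which lie in different stretches of the transcript.

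Gpr37 encodes a receptor that in mice restrains oligodendrocyte differentiation. Its dim probe A_52_P676782, designed on a cDNA clone, read -4.17, -4.33 and -4.24 in BTBR mice, against -3.39, -3.16 and -3.62 in C57BL/6J mice, a difference of -0.86 ± 0.15, or 1.81-fold lower (limma adjusted p = 0.0218). In the authors' deposited matrix this difference was -0.26 and did not pass (limma adjusted p = 0.0677). The bright Gpr37 probe was lower in each BTBR mouse too, with a difference of -0.53 that missed the threshold (limma adjusted p = 0.0858). Cnp, the cyclic nucleotide phosphodiesterase that keeps cytoplasmic channels open in the sheath, read 3.31, 2.93 and 3.34 in BTBR mice, against 3.69, 4.13 and 4.02 in C57BL/6J mice. The strains did not overlap, and the difference of -0.75 ± 0.17 missed the threshold (limma adjusted p = 0.0632). Ermn, a cytoskeletal protein of late oligodendrocytes, had a difference of -0.60, and Hapln2, a link protein at nodes of Ranvier, one of -0.29, neither past the test. The 3 probes of Nfasc, whose isoforms sit on the glial and the axonal side of the node region, had differences of -0.05, 0.04 and 0.02. Nfasc is expressed by neurons as well as by oligodendrocytes.

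The group of lipid and other enzymes held 7 genes, all with a lower mean in BTBR, against 48.4% of all genes. The median difference was -0.33, and 3 of 10 tested probes passed the test, against 3.25% of all probes called lower. Fa2h, the fatty acid 2-hydroxylase that prepares the hydroxylated fatty acids of myelin galactolipids, read 0.48, 0.38 and 0.83 in BTBR mice, against 1.27, 1.47 and 1.53 in C57BL/6J mice. All BTBR mice were below all C57BL/6J mice, and the difference was -0.86 ± 0.15, or 1.82-fold lower (limma adjusted p = 0.0259). Aspa, the aspartoacylase that frees acetate from N-acetylaspartate for lipid synthesis, passed with both of its probes. Probe A_51_P259975 read 0.33, 0.28 and 0.45 in BTBR mice, against 0.91, 1.15 and 0.97 in C57BL/6J mice, a difference of -0.65 ± 0.12, or 1.57-fold lower (limma adjusted p = 0.0254). Probe A_51_P259968 gave -0.66 ± 0.13, or 1.58-fold lower (limma adjusted p = 0.037), so the 2 stretches of the Aspa transcript printed above gave nearly the same difference. When 1 mouse was left out, the adjusted p was 0.0442 to 0.130 at the first probe and 0.0557 to 0.148 at the second.

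The remaining enzymes did not pass. Ugt8a, which makes galactosylceramide, had differences of -0.33 and -0.58 at its 2 tested probes, and Gal3st1, which sulphates that lipid, had one of -0.19. Car2, a carbonic anhydrase abundant in oligodendrocytes, was lower in every BTBR mouse than in any C57BL/6J mouse with a difference of only -0.33 (limma adjusted p = 0.154), and Qdpr, dihydropteridine reductase, differed by -0.20. Enpp2, which encodes autotaxin, read 3.73, 3.53 and 4.07 in BTBR mice, against 5.11, 4.07 and 3.35 in C57BL/6J mice at its bright probe. The C57BL/6J values spread over more than the whole BTBR range, and the highest came from mouse 1, which also had the highest summed level of choroid plexus genes. The part of choroid plexus tissue in the Enpp2 values was not tested. The difference of -0.40 ± 0.43 (limma adjusted p = 0.739) became 0.07 without that mouse.

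Among the 5 transcription factors the differences were smaller, with a median of -0.18. All 5 had a lower mean in BTBR by their brightest probe, against 48.4% of all genes. The test called 1 of their 8 tested probes, against 3.25% of all probes called lower, and 8 probes are few for a share. Nkx6-2, a homeobox factor of differentiating oligodendrocytes, read 0.13, 0.06 and -0.08 in BTBR mice, against 0.58, 0.71 and 0.64 in C57BL/6J mice. The strains were apart, with a difference of -0.60 ± 0.11, or 1.52-fold lower (limma adjusted p = 0.0272), but the call was lost whichever mouse was left out (adjusted p 0.0634 to 0.123). Sox10, which activates myelin genes throughout the lineage, had differences of -0.56 and -0.50 at its 2 probes, and neither passed (limma adjusted p = 0.236 and 0.519). Olig1 differed by -0.18. Olig2, needed for the lineage to form, differed by -0.03 at its bright probe and 0.14 at its dim one, and Myrf, which switches on the myelin programme, by -0.09 and -0.14 at 2 dim probes. The factors Olig1, Olig2 and Sox10 are expressed by precursors as well as by mature cells.

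Both junction genes were lower in every BTBR mouse than in any C57BL/6J mouse, as were 12.5% of all genes. Cldn11, the claudin of the tight junctions between myelin layers, read 1.94, 1.85 and 2.19 in BTBR mice, against 2.57, 2.73 and 2.60 in C57BL/6J mice, a difference of -0.64 ± 0.13, or 1.56-fold lower (limma adjusted p = 0.0421). It was the weakest of the 14 calls. Gjb1, a connexin that forms gap junctions of oligodendrocytes, differed by -0.57 ± 0.22 and did not pass (limma adjusted p = 0.251).

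Of the 8 other genes, 6 had a lower mean in BTBR, against 48.4% of all genes, and the median difference was -0.15. The test called 1 of their 9 probes, against 3.25% of all probes called lower, and 9 probes are few for a share. Trf encodes transferrin, the iron carrier that oligodendrocytes make in the brain. It read 2.07, 1.68 and 2.33 in BTBR mice, against 2.82, 3.32 and 3.22 in C57BL/6J mice. The difference of -1.09 ± 0.21, or 2.13-fold lower, was the largest of the 35 genes by their brightest probes (limma adjusted p = 0.0371). Without C57BL/6J mouse 1, whose choroid plexus genes were highest, the difference was -1.24 and the call was lost (limma adjusted p = 0.0546), and Trf passed in 1 of the 6 fits that leave out 1 mouse. The part of choroid plexus tissue in the Trf values was not tested. Ppp1r14a, an inhibitor of myosin phosphatase, and Evi2a, a membrane protein, were lower in all BTBR mice than in any C57BL/6J mouse. Their differences were -0.71 and -0.49, and both narrowly missed the threshold (limma adjusted p = 0.0632 and 0.0551). The remaining 5 genes are not confined to oligodendrocytes or differed little. Plekhb1 differed by -0.20, the small heat shock gene Cryab by -0.09 and -0.15, the lysophosphatidic acid receptor gene Lpar1 by -0.01, the cell cycle inhibitor gene Cdkn1c by 0.05 and the tubulin-binding protein gene Tppp by 0.13.

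**Figure D3:**
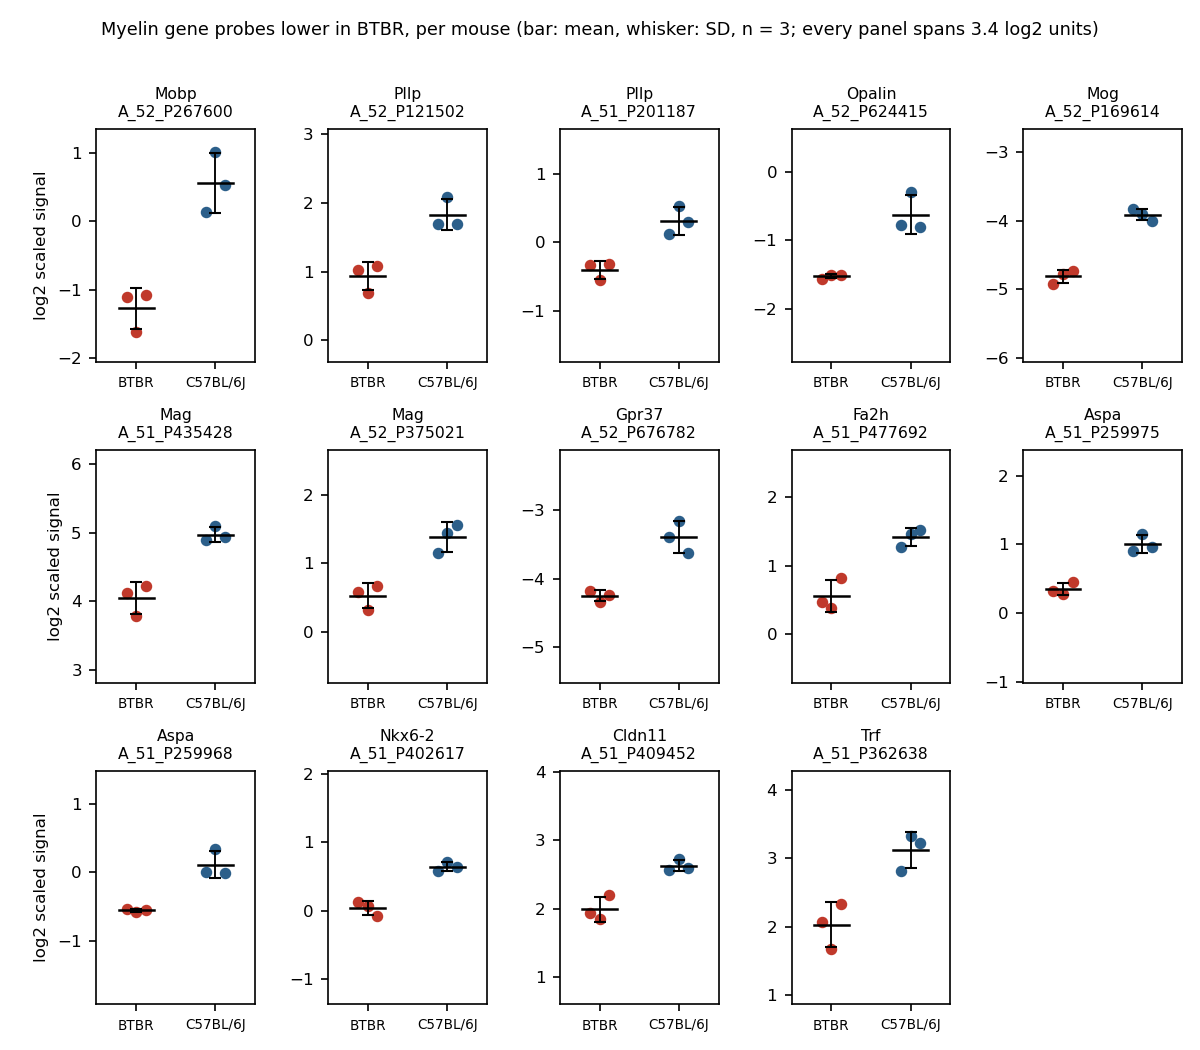
Level of each of the 14 probes past the test (log2 relative to the array's 75th percentile) in every mouse, BTBR left of C57BL/6J, with bars at the mean, whiskers of 1 SD and n = 3 mice a strain. Each panel spans 3.4 log2 units, and in every panel all BTBR mice lie below all C57BL/6J mice.

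Genes with more than 1 probe allow a check within the gene. Of 17 such genes, 13 had a lower mean in BTBR at every tested probe, and 4 (Mbp, Pllp, Nfasc and Olig2) had probes on both sides of 0. In the Pllp case the odd probe is the one on the other strand. In Olig2 the 2 probes differed within mice by 0.17 between strains, with overlap (exact permutation p = 0.4).

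Because many of the genes were lower together, their promoters were searched for short motifs of factors known to act in oligodendrocytes. RefSeq promoters (GRCm38.p6, 250 bases before to 50 after a start) were given for 24 of the 35 genes, 36 promoters in all. Both strands were searched for ACAAAG or ACAATG, cores bound by SOX factors, for CTGGCAC or CTGGTAC, cores bound by MYRF, and for CAGCTG, an E-box. None of these motifs contains another. A SOX core stood in 16 of the 36 promoters (44.4%), against 28.6% of all 32851 promoters of the same length. A MYRF core stood in 7 (19.4%), against 7.1%, and the E-box in 4 (11.1%), against 16.3%. By gene, a SOX core stood in at least 1 promoter of 12 of the 24 genes, against 31.7% of 27025 genes, a MYRF core in 6 (25.0%, against 8.1%) and the E-box in 4 (16.7%, against 18.3%). Promoters of 1 gene can overlap, as some of Mag and Gal3st1 do, so the same core can be counted in more than 1 promoter. By gene, the members had 36 promoters for 24 genes, against 32851 for 27025, and so more stretches per gene to search. A match is a string of letters and not a measured binding site. Of the genes past the test with a promoter given, Mobp, Opalin and Mag held a SOX core. Pllp, Mog, Gpr37, Aspa, Nkx6-2 and Cldn11 held 0. Members that did not pass were mixed too, with 1 in Cnp and Ermn and 0 in Mal and Qdpr. A link between SOX cores and the fall in BTBR was not tested. The promoters of Mobp and Opalin are printed since they hold the most SOX cores of the genes past the test. SOX cores of either strand are in capitals.
Mobp promoter (chr9:120149492-120149791, plus strand, GRCm38.p6): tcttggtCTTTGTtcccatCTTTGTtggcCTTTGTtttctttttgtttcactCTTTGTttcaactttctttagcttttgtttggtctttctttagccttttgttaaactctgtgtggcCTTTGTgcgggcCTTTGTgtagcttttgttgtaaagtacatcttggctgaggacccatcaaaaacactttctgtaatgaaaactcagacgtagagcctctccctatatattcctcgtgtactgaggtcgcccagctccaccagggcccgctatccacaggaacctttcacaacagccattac
Opalin promoter (chr19:41077064-41077363, minus strand, GRCm38.p6): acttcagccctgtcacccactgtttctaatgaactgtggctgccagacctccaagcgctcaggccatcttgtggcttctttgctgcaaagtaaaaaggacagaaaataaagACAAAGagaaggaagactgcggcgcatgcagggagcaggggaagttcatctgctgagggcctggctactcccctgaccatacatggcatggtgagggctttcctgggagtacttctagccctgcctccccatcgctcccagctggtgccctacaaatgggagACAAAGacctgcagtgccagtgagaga
The Mobp promoter holds 6 SOX cores, all on the opposite strand and so read as CTTTGT here, and no MYRF core or E-box. The Opalin promoter holds 2 SOX cores, 1 MYRF core and 1 E-box.

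A second list of 50 genes known from myelinating oligodendrocytes, none of them among the 35, was examined the same way. Like the 35, it was chosen with earlier results of these data known, so it is no independent check. Of these, 48 had a tested probe, and 11 of their 65 tested probes fell in BTBR, against 3.25% of all probes, while 0 rose, against 2.19%. By the brightest probe 43 of 48 genes (89.6%, against 48.4% of all genes) had a lower mean in BTBR, with a median difference of -0.39. The test called 10 genes lower (20.8%, against 3.27% of all genes), and 28 had strains that did not overlap with BTBR lower (58.3%, against 12.5%). Leaving out any 1 mouse left 3 to 9 of these probes past the test, and leaving out BTBR mouse 2 and C57BL/6J mouse 3 together left 2.

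The gene with the smallest p of this list was Prr18, a proline-rich protein gene, which read -0.50, -0.48 and -0.57 in BTBR mice, against 0.80, 1.09 and 0.76 in C57BL/6J mice. The BTBR mice hardly differed among themselves and were all well below the others, with a difference of -1.40 ± 0.12, or 2.64-fold lower (limma adjusted p = 0.00157). Klk6, a secreted protease of oligodendrocytes, fell most, by 1.81 ± 0.27 on the log2 scale, or 3.51-fold (limma adjusted p = 0.0141). Ninj2, an adhesion protein gene, had a difference of -0.94 (limma adjusted p = 0.0102). Itgb4, an integrin subunit gene, fell at both probes, with differences of -0.84 and -0.85 (limma adjusted p = 0.0116 and 0.0128). The zinc finger factor gene St18 and the choline transporter-like gene Slc44a1 also passed, with differences of -0.79 (limma adjusted p = 0.0169) and -0.55 (limma adjusted p = 0.0322). The summed level of the list was 196.2 to 223.2 in BTBR, against 247.4 to 274.3 in C57BL/6J, without overlap.

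Genes of earlier stages had a median difference near 0. Of 15 genes of precursors and newly formed oligodendrocytes, 9 had a lower mean in BTBR and 6 a higher one, with a median of -0.03, and 1 of their 30 tested probes fell, a share near the 3.25% of all probes. Strains did not overlap in 2 of the 15 genes with BTBR lower (13.3%, near the 12.5% of all genes). They did not overlap in 3 with BTBR higher, against 11.2% of all genes. Their summed level was 393.7, 414.5 and 310.7 in BTBR mice 1 to 3, against 252.3, 307.4 and 299.5 in C57BL/6J mice 1 to 3. The sum was higher in every BTBR mouse, though barely in mouse 3, the opposite order to the sums of both myelin lists. A sum weighs bright genes most. The median deviation of the 15 genes was 0.11, 0.04 and -0.18 in BTBR mice 1 to 3. In C57BL/6J mice 1 to 3 it was -0.01, 0.03 and 0.07, so by this measure the strains overlapped. The probe that fell is a dim one for Enpp6, a marker of newly formed oligodendrocytes. It read -5.37, -6.04 and -5.66 in BTBR mice, against -4.34, -3.93 and -4.01 in C57BL/6J mice, a difference of -1.60 ± 0.20, or 3.03-fold lower (limma adjusted p = 0.00703). Its second probe had a difference of -1.24 and did not pass (limma adjusted p = 0.248). The difference between the myelin and the precursor lists was not tested.

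The lists of other cell types are given for comparison, as median differences by the brightest probe. The medians were 0.03 over 10 neuronal genes, 0.01 over 10 astrocyte genes, -0.07 over 10 microglial genes and -0.21 over 8 endothelial genes. The test called 3 of the 10 microglial genes lower and 1 higher, against 3.27% and 2.05% of all genes. The share called lower was thus no smaller than the 22.9% of the 35 members, in a list of only 10 genes. In 3 of the 10 the strains did not overlap with BTBR lower, against 12.5% of all genes. Called lower were also 1 astrocyte gene and 0 genes of the neuronal and endothelial lists. Single genes of these lists did change by their brightest probe. The astrocyte filament gene Gfap had a difference of -1.21 (limma adjusted p = 0.0153). Its other probes differed by -0.57 and -0.46 and did not pass (limma adjusted p = 0.155 and 0.342). The microglial receptor gene Cx3cr1 had a difference of 1.22 (limma adjusted p = 0.00263), but its other probe one of 0.23 with overlapping strains (limma adjusted p = 0.479). The complement gene C1qb had a difference of -1.11 (limma adjusted p = 0.00877). Of the neuronal genes 0 passed by the brightest probe, but 1 of several probes of the synaptic vesicle gene Syt1 had a difference of -0.93 (limma adjusted p = 0.00322). Its brightest probe had a difference of 0.15 (limma adjusted p = 0.613). The 17 genes of the node and the axon had a median of -0.07, and the axonal neurofilament gene Nefl fell at both of its probes, with differences of -1.77 and -0.60 (limma adjusted p = 0.00135 and 0.0296). In the same list a probe of another neurofilament gene, Nefh, rose with a difference of 0.65 (limma adjusted p = 0.0344), and its brighter probe differed by 0.32 (limma adjusted p = 0.644). Medians of the 10 striatal and 5 choroid plexus genes were -1.12 and -0.84, with 0 genes of either past limma's test, 0 at an unadjusted p under 0.05 and the values of single mice far apart.

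**Figure D4:**
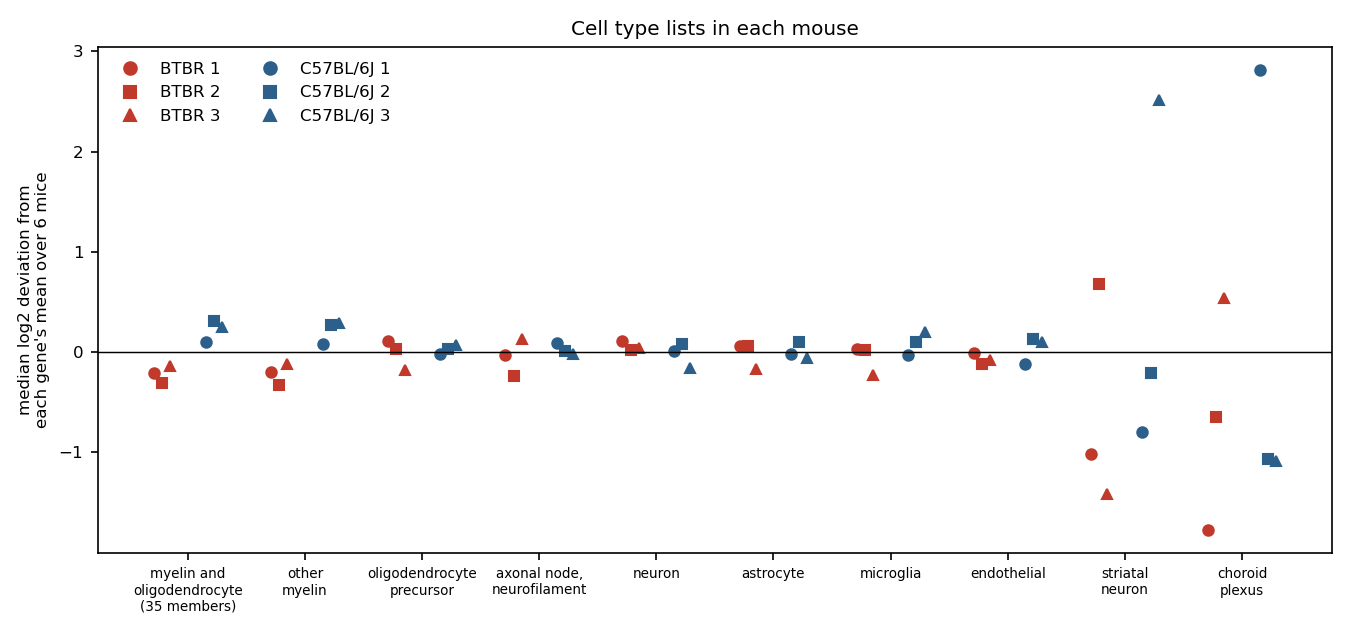
Median deviation of each gene list from the mean of the 6 mice (log2) in every mouse, BTBR left of C57BL/6J in each list. The 2 myelin lists have all BTBR mice below 0 and all C57BL/6J mice above 0, the precursor, astrocyte and microglial lists have mice of both strains on both sides, and the striatal list has C57BL/6J mouse 3 far above the rest.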

How the data were processed

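RNA of prefrontal cortex from 3 BTBR and 3 C57BL/6J mice was measured, 1 array per mouse. The deposited scanner files hold spot intensity on a linear scale, and per the file headers the images were read with Feature Extraction 10.7.3.1, whereas the submitters' processing notes give 9.1. Log2 values of the authors' deposited matrix, whose scaling and background correction are not given in the sources used here, served as an alternative. Its 6 column medians were 8.82 to 8.83, and its strain differences correlated with those of the scanner files across probes at 0.895, with a slope of 0.549.

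The processed signal was taken as log2 minus the array's 75th percentile over 41174 non-control probes. Spots with an outlier flag, 54 to 107 on an array, were dropped if the probe had an unflagged spot, the spots of a probe were averaged, and probes well above background on at least 3 arrays, regardless of strain, were kept (30011). Between 28100 and 30665 probes per array were well above background and 0 were saturated. The number of arrays limits the precision. Names came from RefSeq (GRCm38.p6) through accessions (27816 probes), symbols (5503) or synonyms (380); 853 probes carry the name in the file, and 6622 carry none. Probe sequences were not compared with a BTBR genome.

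Strains were compared with limma 3.58.1 (lmFit, eBayes) in R 4.3.3 with data.table (version 1.17.8), adjusted by Benjamini-Hochberg over all probes with a threshold of 0.05. P-values measure the spread between these 6 mice. On simulated data for BTBR against C57BL/6J over 30011 probes, 0% of simulated 1.5-fold changes, 40.3% of 2-fold changes and 97% of 4-fold changes were found, and 5.21% of calls were false. The simulation changed only 67, 67 and 66 probes by these folds, whereas 975 probes were called lower and 657 higher in the data. Adjustment was therefore stricter in the simulation, and its shares do not give the share of changes found in the data. The members and lists were chosen with earlier results of these data known. All members are named, with values per mouse for those past the test, which include the leading one in each role. Values per mouse are also given for Mbp, Cnp and Enpp2, which did not pass. Also named are 6 genes of the second myelin list, 1 precursor gene and up to 2 of other lists. Alternatives covered background correction, scaling, filter, probes per gene, flags, the authors' values, prior, array weights, slide and replicate blocks and leaving out mice; leaving out BTBR mouse 2 and C57BL/6J mouse 3 together was added after seeing the data.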

Additional observations from a re-analysis of the deposited data

How the results depend on the processing

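Quantile normalization, keeping flagged spots and the filter on all 6 arrays each left 14 member probes lower in BTBR, and all 14 kept their direction with normexp background correction. The count was 0 with normexp (where the median of all probes was -0.10 and 126 probes of all were called lower and 44 higher). It was 9 with scaling to the median (980 of all called lower) and 3 with no filter on dim probes (683 of all). With 1 probe per gene, 9 of 35 genes passed, against 8 by the brightest probe in the main fit. Array weights, whose fit did not fully converge, gave 27. They called 1912 probes of all lower and 2016 higher, against 975 and 657 in the main fit. The count was 10 with slide as a block (925 of all), 7 on slide 1 alone (897) and 2 without C57BL/6J mouse 3 and BTBR mouse 2 together (647). Leaving out 1 mouse gave 2 to 8, with 541 to 840 of all probes called lower. For the second myelin list these counts were 1 with normexp, 6 with scaling to the median, 6 with no filter, 23 with array weights, 7 with slide as a block, 4 on slide 1 alone and 2 without both mice, and leaving out 1 mouse gave 3 to 9, against 11. The cause was not tested, except that slide 1 and the settings without mice hold fewer samples.

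Of member probes higher in BTBR, 1 passed with the authors' values and 1 with array weights, which was Mbp A_52_P604195 both times (limma adjusted p = 0.0423 and 0.0281). Its gene's mean over probes was -0.10. The bright Enpp2 probe ranged from -0.814 to 0.067 when 1 mouse was left out, and was above 0 without C57BL/6J mouse 1 only. The downstream Mobp probe ranged from -0.124 to 0.056 when 1 mouse was left out, being above 0 without BTBR mouse 1 (0.022) and without C57BL/6J mouse 3, and was 0.086 without C57BL/6J mouse 3 and BTBR mouse 2. The opposite-strand Pllp probe turned to -0.272 with normexp, and the mean of the Pllp probes was -0.471.

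Replicate numbers did not pair the mice, since same-numbered mice of the 2 strains correlated in their deviations at 0.028, -0.17 and -0.079, and not every mouse correlated best with its own number. With the replicate block, 0 member probes and 2 probes of the second myelin list passed. Simulated 1.5-fold changes were not found, in a simulation that changed far fewer probes than were called in the data.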
